A study of Homo sapiens with 10 samples.

Results

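Of the 23228 genes listed in the count table, 90 had symbols of the nuclear genes for the 5 complexes of oxidative phosphorylation. They were chosen by symbol alone: NDUFA, NDUFB, NDUFC, NDUFS and NDUFV genes for complex I, SDHA to SDHD for complex II, UQCR genes for complex III, COX genes numbered 4 to 8 for complex IV and ATP5 genes for complex V. After 8 rows were set apart, 82 subunit genes remained, of which 38 belonged to complex I, 4 to complex II, 8 to complex III, 17 to complex IV and 15 to complex V. The rows set apart were the copies ATP5EP2, ATP5L2 and UQCRHL, the readthrough genes ATP5J2-PTCD1 and NDUFC2-KCTD14, and ATP5S, ATP5SL and COX4NB, which share a stem of the name and are not subunits. NDUFA4 is counted with complex I by its symbol, although its protein is now placed in complex IV.

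Per the labels, RNA came from RD, an established rhabdomyosarcoma line known to carry an activating NRAS mutation. Poly(A) RNA-seq covered 5 groups of 2 libraries, and all 10 libraries are of this 1 line. The nonspecific siRNA, NRAS siRNA 1 and NRAS siRNA 2 groups received 10 nM siRNA by lipid transfection and were collected at 48 h. The DMSO group and the group given the ERK kinase inhibitor SCH772984 at 300 nM were collected at 24 h. The libraries held 23224063 to 30768970 counts over genes. NRAS was lower with siRNA 1 (log2 fold change -2.23, SE 0.12, edgeR adjusted p = 4.77e-05) and with siRNA 2 (-2.31, SE 0.12, edgeR adjusted p = 5.15e-05). DUSP6, a phosphatase gene induced by ERK activity, was lower with the inhibitor (-4.61, SE 0.19, edgeR adjusted p = 9.63e-07). The defining muscle regulators of such a line were at or near 0, which goes against the label: over the 10 libraries MYOD1 had 25 counts, MYOG 10 and MYF5 0. The other muscle-lineage markers were uneven. PAX3 had 3380 counts, DES 7037 and MEF2C 10131, while PAX7 had 34, CHRNA1 89 and CDH15 423. Of blood markers PTPRC had 23 counts, CD3E 10 and CD68 1000, and of endothelial markers PECAM1 had 18 and CDH5 43. Epithelial markers were also uneven, with 55283 counts for KRT18, 4478 for KRT8, 566 for EPCAM and 63 for CDH1.

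Oxidative phosphorylation passes electrons from NADH through complex I, or from succinate through complex II, to quinone, then through complex III and cytochrome c to complex IV, where oxygen is reduced. The protons pumped by complexes I, III and IV drive ATP synthesis by complex V. Most subunits are nuclear genes, and the few encoded by mitochondrial DNA were not analysed here. Factors that bind the promoters of many of these genes include NRF1, ETS factors such as GABP, SP1 and YY1.

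The 5 promoters below are shown because their genes are the members on which the comparisons turn: UQCRH and SDHB were lower with the ERK inhibitor, and NDUFB7, NDUFS7 and UQCR11 differed in the other direction between the treatments. Each is the 250 bases before the RefSeq start site (GRCh38.p14), written 5′ to 3′ on the strand of the gene. Capitals mark matches on either strand to GCATGCGC (NRF1), CCGGAAG (ETS), AAGATGGC (YY1) or GGGCGG (SP1). The windows are chr1:46303448-46303697 (plus strand) for UQCRH, chr1:17054033-17054282 (minus) for SDHB, chr19:14572067-14572316 (minus) for NDUFB7, chr19:1383657-1383906 (plus) for NDUFS7 and chr19:1605463-1605712 (minus) for UQCR11.
UQCRH: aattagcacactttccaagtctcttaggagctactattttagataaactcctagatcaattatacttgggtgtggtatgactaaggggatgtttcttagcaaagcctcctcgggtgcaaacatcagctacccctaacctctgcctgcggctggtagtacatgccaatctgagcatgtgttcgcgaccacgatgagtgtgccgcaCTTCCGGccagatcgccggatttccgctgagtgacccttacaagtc
SDHB: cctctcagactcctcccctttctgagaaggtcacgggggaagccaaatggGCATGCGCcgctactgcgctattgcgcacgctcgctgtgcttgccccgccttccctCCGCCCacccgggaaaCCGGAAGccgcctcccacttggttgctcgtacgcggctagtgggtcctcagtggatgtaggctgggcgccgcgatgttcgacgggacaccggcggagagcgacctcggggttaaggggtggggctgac
NDUFB7: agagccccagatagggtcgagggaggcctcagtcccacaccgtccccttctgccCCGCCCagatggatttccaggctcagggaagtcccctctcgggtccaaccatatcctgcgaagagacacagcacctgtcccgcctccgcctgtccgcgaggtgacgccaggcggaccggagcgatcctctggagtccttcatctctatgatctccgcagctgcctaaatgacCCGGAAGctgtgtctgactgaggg
NDUFS7: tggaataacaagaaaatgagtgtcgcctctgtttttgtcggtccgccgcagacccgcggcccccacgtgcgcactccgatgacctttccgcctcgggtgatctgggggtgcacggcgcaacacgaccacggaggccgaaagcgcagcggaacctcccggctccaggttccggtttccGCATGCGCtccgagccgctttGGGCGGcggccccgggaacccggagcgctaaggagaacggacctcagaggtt
UQCR11: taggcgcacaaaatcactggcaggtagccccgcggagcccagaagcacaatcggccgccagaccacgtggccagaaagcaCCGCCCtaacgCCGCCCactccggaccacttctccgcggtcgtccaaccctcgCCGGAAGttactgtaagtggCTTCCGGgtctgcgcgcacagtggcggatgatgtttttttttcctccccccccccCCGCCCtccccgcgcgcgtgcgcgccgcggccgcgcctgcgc
UQCRH held 1 ETS match, and SDHB held an ETS, an NRF1 and an SP1 match. NDUFB7 held an ETS and an SP1 match, NDUFS7 an NRF1 and an SP1 match, and UQCR11 2 ETS and 3 SP1 matches. NRF1, ETS and SP1 matches each occurred both among the genes lower with the inhibitor and among the other 3, and YY1 matches in none of the 5.

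A promoter was matched for 68 of the 82 subunit genes, 64 of them tested. Among those 64, the NRF1 motif was in 12 (18.8%), against 2.81% of all 27305 promoters of the same length and 4.64% of the 11187 promoters of tested genes. The ETS motif was in 16 (25.0%), against 8.82% of all promoters and 15.1% of those of tested genes. SP1 matches were in 36 (56.2%), against 42.3% and 66.6%, and the YY1 match was in 1 (1.56%), against 1.37% and 1.75%. These shares describe letters in a window and carry no test.

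Subunit transcripts together made up 0.839 to 1.00% of a library. Levels are given as CPM, counts divided by library size after scaling by trimmed mean of M-values (TMM) factors, so they are shares of the RNA sampled. Less of a transcript in each cell and more of other transcripts cannot be told apart in such values. Per kilobase of transcript, NDUFB9 (an accessory subunit of complex I) had the highest level of the family at 904 CPM per kb. In complex V the highest were ATP5J2 at 522 and ATP5B, the catalytic beta subunit, at 463 CPM per kb. COX4I1, the common isoform of a regulatory subunit, led complex IV at 363 CPM per kb, UQCRH led complex III at 216 and SDHC, a membrane anchor, led complex II at 136. The rank of SDHC rests on a transcript length taken as 460 bases. By CPM not divided by length, SDHB (101.9) and SDHA (83.06) stood above SDHC (62.35). The lowest tested subunits per kb were COX6B2 at 0.84, ATP5E at 1.20 and NDUFV3 at 11.1 CPM per kb. The ATP5E value cannot be read as the level of that subunit. Its copy ATP5EP2 had 12.6 to 29.4 times its counts, and the transcript length used for ATP5E was 3665 bases.

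Most isoforms restricted to muscle, lung or testis were at or near 0, except the testis form COX6B2, which had 21 to 72 counts in a library. COX7A1 (heart and muscle) had 0 counts in all 10 libraries, which allows up to 0.0952 to 0.132 CPM in a library at 3 counts. COX6A2 (heart and muscle) had 2 counts over all libraries, COX4I2 (lung) 1, COX8C 5 and COX7B2 7, the last pair being testis forms. NDUFA4L2, a hypoxia-inducible relative of NDUFA4, had 2 to 11 counts in a library. By contrast their common partners were abundant: COX6A1 lay between 50.1 and 63.8 CPM, COX7A2 between 95.1 and 132 CPM, and COX4I1 between 231 and 290 CPM. With ATP5L2 (1 to 6 counts) and both readthrough genes (0 counts), these 9 rows were too low to test. The other 81 rows, 76 of them subunits, entered every comparison.

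Group means of the summed levels were lowest with the ERK inhibitor for complexes II, III, IV and V, and in all 5 complexes both inhibitor libraries lay under both DMSO libraries. Complex III subunits summed to 1025 and 1105 CPM with DMSO and to 864.9 and 881.3 CPM with the inhibitor, a ratio of means of 0.82. Complex II subunits summed to 305.2 and 313.0 CPM with DMSO and 263.0 and 256.5 CPM with the inhibitor (ratio 0.84). For complex V the sums were 3240 and 3602 CPM with DMSO against 2842 and 2996 CPM (ratio 0.853), and for complex IV 1183 and 1261 CPM against 1091 and 1109 CPM (ratio 0.90). Complex I had the smallest difference, from 3428 and 3727 CPM to 3330 and 3418 CPM (ratio 0.943). The sums are a description, and no test was run on them.

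**Figure D1:**
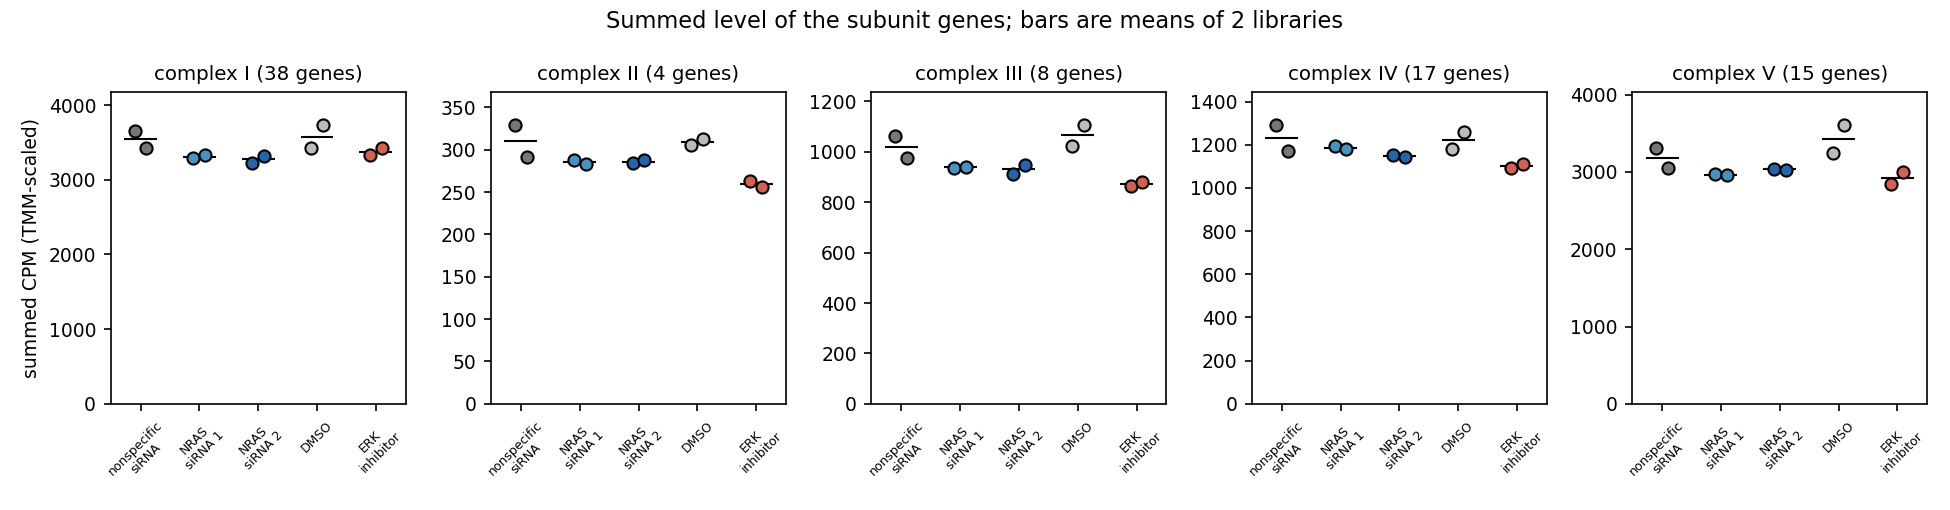
Summed TMM-scaled CPM of the subunit genes of complexes I to V in each of the 10 libraries (points) and the mean of each group (bars); every vertical axis starts at 0. The 2 ERK inhibitor libraries lie under both DMSO libraries in every complex, by the widest ratio in complex III (0.82) and the narrowest in complex I (0.943).

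With the NRAS siRNAs the sums were also lower than in their controls. The ratio of the 4 NRAS siRNA libraries to the nonspecific siRNA was 0.929 for complex I, 0.921 for complex II, 0.916 for complex III, 0.947 for complex IV and 0.943 for complex V. All 4 NRAS siRNA libraries lay under both nonspecific siRNA libraries in complexes I, II, III and V. The nonspecific siRNA libraries also differed from each other: complex III summed to 1064 and 976.7 CPM in them, against 912.0 to 948.6 CPM in the 4 NRAS siRNA libraries. Complex IV alone overlapped, with 1290 and 1173 CPM against 1143 to 1193 CPM.

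Whether the subunit genes respond to ERK inhibition was asked of the inhibitor and DMSO libraries. With the inhibitor 14 subunits fell and 3 rose. Those that fell included the electron-carrying or core subunits UQCRC1, UQCRC2, SDHB, NDUFS1 and NDUFV2 and the ATP synthase subunits ATP5B, ATP5C1 and ATP5G3, and those that rose were NDUFB7, ATP5D and UQCR11. Over the 81 tested rows, 16 were called lower (19.8%, against 14.8% of all tested genes) and 3 higher (3.7%, against 13.2%), with edgeR at an adjusted p under 0.05. The lower share of the members was thus above that of all genes here, but under it in 5 of 19 alternatives: with upper-quartile scaling (9.88% against 11.7%), the compared groups alone (9.88% against 14%), an offset for GC content described below (17.3% against 19.3%), and without DMSO replicate 2 or ERK inhibitor replicate 1. The higher share was under that of all genes in each of the 19. The median log2 fold change of the 76 subunits was -0.12, with 50 below 0, while the median over all genes was 7e-04; without DMSO replicate 2 they were -0.03 and 0.02. In 39 of the 76 both inhibitor libraries lay under both DMSO libraries, and in 12 both lay above; among all tested genes the shares were 33.9% and 32.8%.

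Calls by complex rest on few genes each and stand beside 14.8% of all tested genes lower and 13.2% higher. In complex I 4 of 37 subunits fell and 1 rose, with a median of -0.02. In complex II 1 of 4 fell (median -0.15), in complex III 3 of 8 fell and 1 rose (median -0.21), in complex IV 3 of 12 fell (median -0.16), and in complex V 3 of 15 fell and 1 rose (median -0.22). No test of the difference between complexes was made, since genes are not replicates. When the libraries were scaled by their upper quartile, the median of all genes moved to 0.06 and the complex I median to 0.04. The calls over the 81 tested rows were then 3 higher (3.7%, against 15.0% of all genes) and 8 lower (9.88%, against 11.7%).

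**Figure D2:**
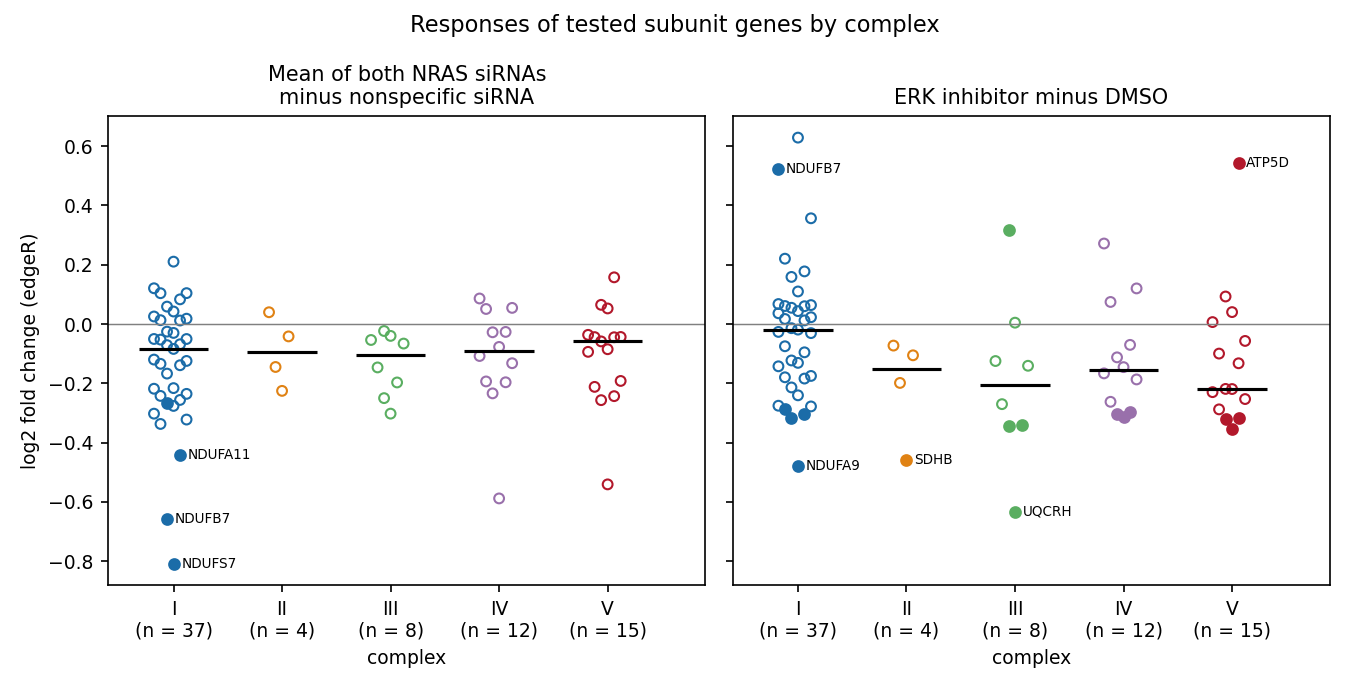
The edgeR log2 fold change of each of the 76 tested subunit genes by complex, for the mean of both NRAS siRNAs (left) and the ERK inhibitor (right); filled points had an adjusted p under 0.05, bars are medians, and called genes past 0.42 in size are named. Complexes II to V lie mostly below 0 on the right, with UQCRH lowest at -0.63, while complex I is spread on both sides of 0.

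In complex III the largest response was that of UQCRH, the hinge protein that contacts cytochrome c1. Its level was 149 and 162 CPM with DMSO and 100 CPM in each inhibitor library, and 146 and 142 CPM with the nonspecific siRNA. Both inhibitor libraries lay under every other library. The log2 fold change was -0.63 (SE 0.08, edgeR adjusted p = 0.000493), and it remained called in 19 of 19 alternative analyses. UQCRHL, its near-identical intronless copy, stood at 90.2 and 99.3 CPM with DMSO and 57.6 and 64.9 CPM with the inhibitor (log2 fold change -0.63, SE 0.10, edgeR adjusted p = 0.0017). The UQCRHL to UQCRH ratio was 0.576 to 0.75 over the libraries, and reads of such copies may be divided between them, so the 2 rows are not independent and their split is uncertain.

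The core proteins of complex III fell together. UQCRC1 was at 345 and 370 CPM with DMSO and 279 and 284 CPM with the inhibitor (log2 fold change -0.34, SE 0.08, edgeR adjusted p = 0.0128). UQCRC2 was at 214 and 226 CPM against 169 and 179 CPM (-0.34, SE 0.09, edgeR adjusted p = 0.0152). UQCRFS1, the Rieske iron-sulfur protein, had a fold change of -0.27 that did not pass (edgeR adjusted p = 0.0679). CYC1, the cytochrome c1 of the same complex and outside the symbol pattern, was lower by the same test (-0.33, SE 0.11, edgeR adjusted p = 0.0412). UQCR11, a small accessory subunit, went the other way: 52.1 and 53.2 CPM with DMSO and 70.8 and 60.3 CPM with the inhibitor (0.32, SE 0.10, edgeR adjusted p = 0.046). UQCR11 kept that call in 10 of 19 alternatives.

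SDHB carries the iron-sulfur clusters of complex II. It was at 108 and 123 CPM with DMSO and 85.8 and 82.7 CPM with the inhibitor, without overlap (log2 fold change -0.46, SE 0.09, edgeR adjusted p = 0.0059). Its partners did not pass the test: the flavoprotein SDHA had -0.20, the anchors SDHC -0.11 and SDHD -0.07 (edgeR adjusted p 0.167, 0.54 and 0.591). A difference between SDHB and its partners was not tested.

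In complex V the fallen genes were ATP5B (catalytic beta), ATP5C1 (gamma, of the central stalk) and ATP5G3 (1 of the genes for subunit c of the rotor ring). ATP5B was the most abundant member by CPM, at 910 and 1060 CPM with DMSO and 771 and 808 CPM with the inhibitor (log2 fold change -0.32, SE 0.09, edgeR adjusted p = 0.0224). ATP5C1 went from 168 and 187 CPM to 132 and 146 CPM (-0.35, SE 0.09, edgeR adjusted p = 0.0181). Among the genes for subunit c, ATP5G3 fell (-0.32, edgeR adjusted p = 0.0303), while ATP5G1 had -0.25 and ATP5G2 0.04, neither passing. ATP5D, the delta subunit at the foot of the central stalk, rose from 21.9 CPM in each DMSO library to 37.5 and 26.3 CPM (0.54, SE 0.17, edgeR adjusted p = 0.0415). ATP5EP2, a processed copy of ATP5E (epsilon), was called lower at -0.60 (SE 0.09, edgeR adjusted p = 0.0015). Its counts were 12.6 to 29.4 times those of ATP5E, which itself stood at only 3.22 to 5.56 CPM, so the level of epsilon itself cannot be read from either row.

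Among complex IV genes COX5A, COX6A1 and COX7A2 fell, each a nuclear subunit around the mitochondrially encoded core. COX5A was at 76.6 and 81.5 CPM with DMSO and 63.7 and 63.6 CPM with the inhibitor (log2 fold change -0.31, SE 0.09, edgeR adjusted p = 0.0238). COX6A1 and COX7A2 had fold changes of -0.30 each (edgeR adjusted p 0.0306 and 0.0332). The lowest-level member, COX6B2 (a testis form), was at 0.797 to 2.98 CPM and passed no test, while its common partner COX6B1 had -0.11 (edgeR adjusted p = 0.391). COX5B had the highest value in the complex, 0.27 (edgeR adjusted p = 0.132).

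Complex I held members at both ends. NDUFA9, an accessory subunit near the quinone site, was at 118 and 142 CPM with DMSO and 87.7 and 98.9 CPM with the inhibitor (log2 fold change -0.48, SE 0.11, edgeR adjusted p = 0.00978). The core electron-transfer subunits NDUFS1 (-0.29) and NDUFV2 (-0.30) and the accessory NDUFB6 (-0.32) also fell (edgeR adjusted p 0.0256, 0.045 and 0.0377). NDUFS1 kept its call in 12 of 19 alternatives, NDUFB6 in 7 and NDUFV2 in 4. The 7 core subunits of complex I did not fall as a set: their median was 0.04, with 3 below 0 and 4 above. NDUFB7, an accessory subunit of the membrane arm, rose from 62.4 and 61.1 CPM to 97.4 and 79.9 CPM (0.52, SE 0.14, edgeR adjusted p = 0.0226). NDUFS7, the core subunit that hands electrons to quinone, was at 19.6 and 21.5 CPM with DMSO and 40.6 and 23.2 CPM with the inhibitor. Its value of 0.63 had an SE of 0.25 and did not pass (edgeR adjusted p = 0.0882), the 2 inhibitor libraries being far apart.

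Leaving out single libraries bore on the number of calls under the inhibitor. The 19 called members (23.5%, against 28% of all genes) became 3 without DMSO replicate 2 (3.66%, against 12.8%) and 4 without ERK inhibitor replicate 1 (4.94%, against 12.5%).

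**Figure D3:**
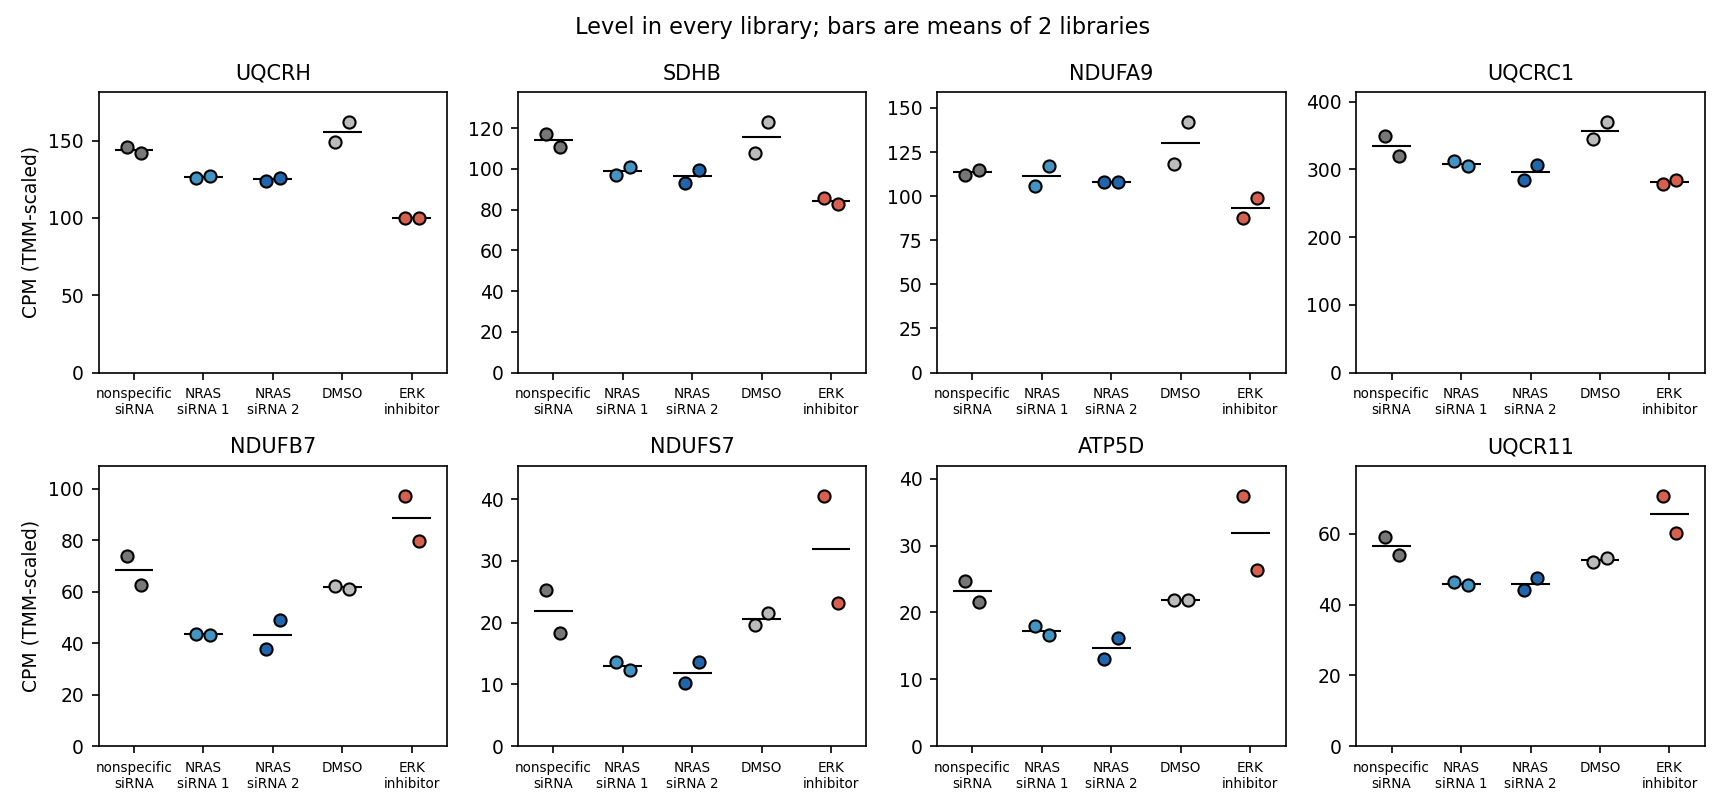
TMM-scaled CPM of 8 members in each library (points), with group means (bars) and axes from 0. UQCRH, SDHB, NDUFA9 and UQCRC1 (top) are lowest in the 2 ERK inhibitor libraries, and NDUFB7, NDUFS7, ATP5D and UQCR11 (bottom) are lowest in the NRAS siRNA libraries and highest in ERK inhibitor replicate 1.

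Depletion of NRAS, the other perturbation of the study, gave few calls among the subunit genes. With the mean of both siRNAs 4 of the 81 tested members fell, all in complex I: NDUFB7, NDUFA11, NDUFB8 and NDUFS7. That is 4.94%, against 4.99% of all tested genes, and so no more than the background. None rose by edgeR, against 2.97% of all genes, and DESeq2 also called 0 higher and 6 lower (7.41%, against 6.52% of all genes). Without adjustment 24 members had p under 0.05 (29.6%, against 26.5%). The median of the 76 subunits was -0.08, with 58 below 0, and the median of all genes was -0.01; the subunit median was -0.02 without nonspecific siRNA replicate 1 and -0.14 without replicate 2. By complex the medians were -0.08 for I, -0.09 for II, -0.11 for III, -0.09 for IV and -0.06 for V, and all 8 complex III subunits were below 0. In 29 subunits every NRAS siRNA library lay under both nonspecific siRNA libraries and in 3 every one lay above, against 19.3% and 16.2% of all genes. Of 6 related genes outside the symbol pattern 1 was called lower with the siRNAs (16.7%, against 4.99% of all genes). CYC1 of complex III, among these 6, was at 71.6 and 71.4 CPM in the controls and 53.4 to 59.5 CPM in the NRAS siRNA libraries.

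NDUFB7 was at 73.8 and 62.8 CPM with the nonspecific siRNA, 43.6 and 43.2 CPM with siRNA 1 and 37.6 and 49.0 CPM with siRNA 2. All 4 NRAS siRNA libraries lay under both controls (log2 fold change -0.66, SE 0.12, edgeR adjusted p = 0.0143). NDUFS7 was at 25.3 and 18.4 CPM in the controls, 13.7 and 12.4 CPM with siRNA 1 and 10.2 and 13.6 CPM with siRNA 2 (-0.81, SE 0.22, edgeR adjusted p = 0.0495). NDUFA11, an accessory subunit in the membrane, was at 89.1 and 79.5 CPM in the controls, 65.2 and 64.0 CPM with siRNA 1 and 52.4 and 67.0 CPM with siRNA 2 (-0.44, SE 0.11, edgeR adjusted p = 0.0348). NDUFB8, another membrane-arm accessory subunit, was at 117 CPM in both controls and between 94.0 and 101 CPM in the NRAS siRNA libraries (-0.27, SE 0.07, edgeR adjusted p = 0.0498). ATP5D was at 24.7 and 21.6 CPM in the controls and between 13.1 and 17.9 CPM with the siRNAs, a change of -0.54 that did not pass (edgeR adjusted p = 0.0536). Most fits that left out 1 library called fewer members, and each of these also called fewer of all tested genes. Without nonspecific siRNA replicate 1 both were fewest. Over the main fit and all alternatives the log2 fold change ran from -0.769 to -0.443 for NDUFB7 and from -1.02 to -0.544 for NDUFS7. For NDUFA11 it ran from -0.535 to -0.291 and for NDUFB8 from -0.293 to -0.239.

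Taken singly, siRNA 2 gave 3 lower members, NDUFB7, NDUFA11 and NDUFA7 (3.7%, against 3.84% of all genes), and 0 higher, against 2.59%. Their log2 fold changes were -0.66, -0.50 and -0.41 (edgeR adjusted p 0.0289, 0.0425 and 0.0468). NDUFA7, an accessory subunit, was at 33.1 and 29.7 CPM in the controls and 23.2 and 24.2 CPM with siRNA 2. With siRNA 1 no member passed edgeR's test in either direction, where 0.894% of all genes were called higher and 1.17% lower; 12 members had an unadjusted p under 0.05 (14.8%, against 17.5% of all genes) and DESeq2 called 1 (1.23%, against 5.02%). Side by side, the siRNA 1 value of NDUFB7 was -0.65 (edgeR adjusted p = 0.0502), that of NDUFA11 -0.38 and that of NDUFS7 -0.74. Both siRNA comparisons use the same control libraries. Tested directly against each other, the siRNAs differed in 0 of 81 members by edgeR and by DESeq2 (1 with an unadjusted p under 0.05), against 0.427% of all genes. The nonspecific siRNA and DMSO groups, which also differ in transfection and in time, differed in 0 of 81 members by both tools (1 unadjusted), against 0.379%. For siRNA 2 alone most fits that left out 1 library called fewer members. Fewest were called without nonspecific siRNA replicate 1 or NRAS siRNA 2 replicate 1, among the members and among all tested genes alike. Over the main fit and all alternatives the siRNA 2 value ran from -0.862 to -0.438 for NDUFB7. It ran from -0.686 to -0.331 for NDUFA11 and from -0.483 to -0.311 for NDUFA7.

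Both treatments use separate controls, so the difference between the NRAS siRNA response and the ERK inhibitor response was tested for each member. The siRNA response was lower than the inhibitor response for NDUFB7, NDUFS7, NDUFA11, ATP5D and UQCR11, whose 2 fitted values had opposite signs, and higher for UQCRH. The difference, siRNA response minus inhibitor response, was -1.18 for NDUFB7 (SE 0.19, edgeR adjusted p = 0.00742), -1.44 for NDUFS7 (SE 0.33, edgeR adjusted p = 0.0321) and -1.08 for ATP5D (SE 0.23, edgeR adjusted p = 0.0242). NDUFA11 had -0.66 (edgeR adjusted p = 0.0381), UQCR11 -0.62 (edgeR adjusted p = 0.028) and UQCRH 0.44 (edgeR adjusted p = 0.0386). Among the 81 members 5 were thus lower (6.17%, against 4.57% of all genes) and 1 higher (1.23%, against 2.73%). UQCR11 was at 59.1 and 53.9 CPM with the nonspecific siRNA and between 44.1 and 47.4 CPM in the NRAS siRNA libraries, under both controls. UQCRH was at 124 to 127 CPM in those 4 libraries, also under its controls of 146 and 142 CPM, so for UQCRH both treatments went the same way and differed in size.

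Of the 6 differences, that of NDUFB7 was called in 18 of 18 alternatives and that of UQCRH in 6, with 0 of 10 when single libraries were left out. Every fit that left out 1 library called fewer members, and each also called fewer of all tested genes. Over the main fit and all alternatives the difference ran from -1.31 to -0.596 for NDUFB7 and from -1.79 to -0.721 for NDUFS7. It ran from -1.32 to -0.401 for ATP5D and from -0.754 to -0.27 for NDUFA11. For UQCR11 it ran from -0.728 to -0.499 and for UQCRH from 0.367 to 0.498. Across the 76 subunits the responses to the siRNAs and to the inhibitor had Pearson's r of -0.42 and Spearman's rho of -0.09, against 0.54 and 0.45 over all 14761 genes. These are correlations across genes, which are not independent replicates. Both responses were below 0 in 40 subunits, both above 0 in 8, the siRNA response alone below 0 in 18 and the inhibitor response alone below 0 in 10.

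The GC content of the transcripts moved with these opposite responses. Of the 76 tested subunits, 7 had transcripts of at least 60% GC: ATP5D (69.5%), NDUFS7 (67.6%), NDUFB7 (65.0%), NDUFS8 (63.3%), NDUFA11 (62.3%), NDUFA13 (61.6%) and NDUFV1 (60.8%), 6 of them in complex I. Their median response was -0.44 to the siRNAs and 0.36 to the inhibitor. All 2374 tested genes of that GC content had medians of -0.20 and 0.28, and 11.3% of them were called lower with the siRNAs and 27.0% higher with the inhibitor. The 38 subunits under 50% GC had medians of -0.05 and -0.18. Across the 76 subunits Pearson's r between GC content and log2 fold change was -0.58 for the siRNAs and 0.53 for the inhibitor, and over the 14116 tested genes with a known transcript it was -0.23 and 0.15. The GC content of the promoter window had r of -0.15 and 0.23 over 64 subunits.

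**Figure D4:**
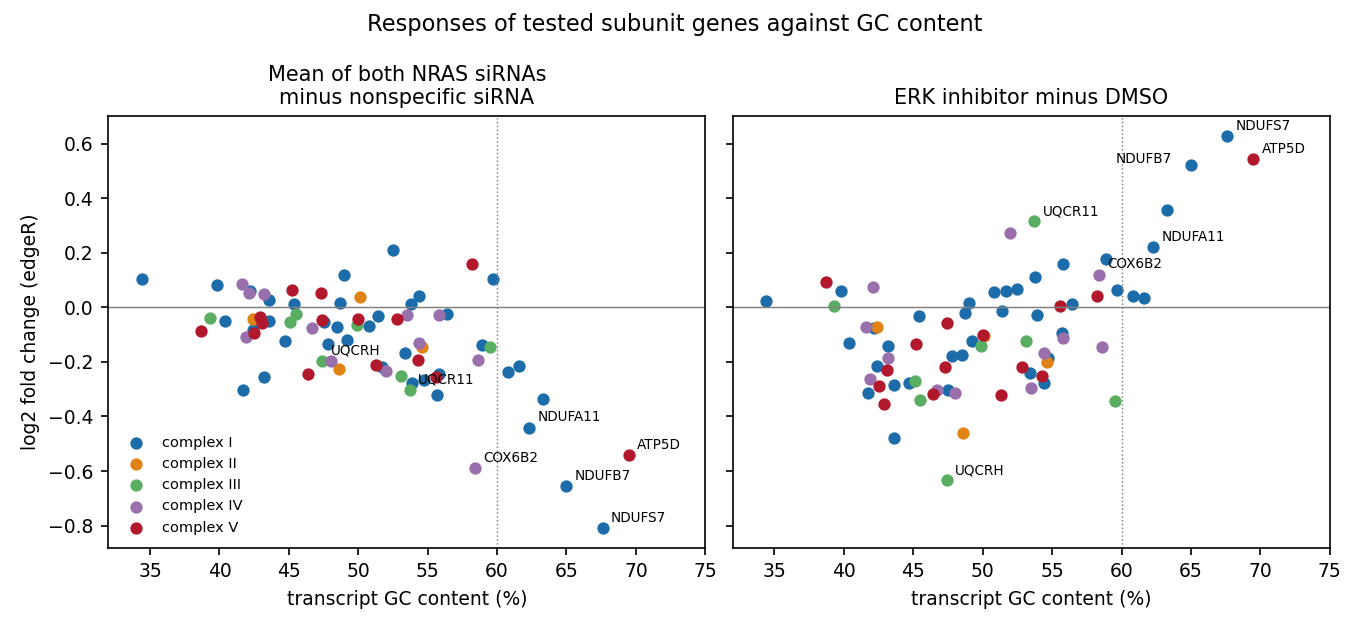
The edgeR log2 fold change of each tested subunit gene against the GC content of its transcript in percent, for the mean of both NRAS siRNAs (left) and the ERK inhibitor (right); colours give the complex and the dotted line stands at 60% GC. The 7 genes to the right of the line lie below 0 on the left and above 0 on the right, while UQCR11 (53.7% GC) changes sign without lying among them.

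Libraries also differed in GC content within a group. The median log2 deviation of the most GC-rich decile of all tested genes, minus that of the least GC-rich decile, was 0.30 and -0.16 in the nonspecific siRNA libraries, -0.06 and -0.26 with siRNA 1, -0.39 and -0.18 with siRNA 2, -0.06 and 0.17 with DMSO, and 0.50 and 0.13 with the inhibitor. The lowest library of all was NRAS siRNA 2 replicate 1 and the highest ERK inhibitor replicate 1, which were also the extremes for NDUFB7, NDUFS7 and ATP5D. With an offset for GC content fitted in each library, chosen after seeing the data, the inhibitor values of NDUFB7 and ATP5D became 0.15 (edgeR adjusted p = 0.254) and 0.09 (edgeR adjusted p = 0.515), and neither passed. The siRNA values of NDUFB7 (-0.44, edgeR adjusted p = 0.0116) and NDUFS7 (-0.58, edgeR adjusted p = 0.0307) still passed, and that of NDUFA11 (-0.29, edgeR adjusted p = 0.0509) did not. UQCR11 remained higher with the inhibitor (0.27, edgeR adjusted p = 0.0342), and UQCRH (-0.58, edgeR adjusted p = 0.000347) and SDHB (-0.45, edgeR adjusted p = 0.00302) remained lower. Of the 6 differences between treatments, those of NDUFB7 (-0.60), UQCR11 (-0.57) and UQCRH (0.38) were still called (edgeR adjusted p 0.0257, 0.0179 and 0.0496), and those of ATP5D (-0.40), NDUFS7 (-0.73) and NDUFA11 (-0.27) were not (edgeR adjusted p 0.108, 0.0723 and 0.238). The inhibitor calls became 1 higher and 14 lower (17.3%, against 19.3% of all genes), 13 of the 15 shared with the fit without the offset. The complex medians became -0.06 for I, -0.14 for II, -0.19 for III, -0.19 for IV and -0.17 for V, and that of all genes -0.04. An offset of this kind also removes any response that follows GC content, and the 2 cannot be told apart here.

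**Figure D5:**
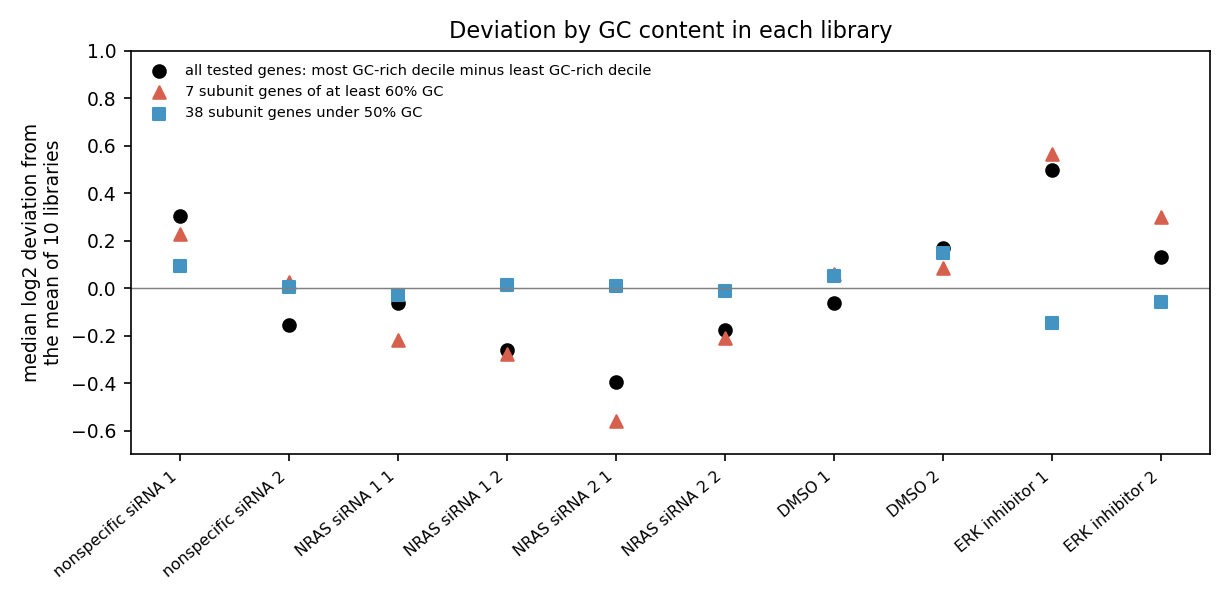
For each library, the median log2 deviation from the mean of the 10 libraries for 7 subunit genes of at least 60% GC (triangles) and 38 under 50% GC (squares), and, over all tested genes, the most GC-rich decile minus the least GC-rich decile (circles). The triangles follow the circles, from -0.56 in NRAS siRNA 2 replicate 1 to 0.56 in ERK inhibitor replicate 1.

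Genes that build and serve the complexes were read from lists outside the symbol pattern. With the inhibitor, where 14.8% of all tested genes were lower and 13.2% higher, 8 of 36 assembly factors fell (22.2%) and 0 rose (median -0.15). Among those that fell were NDUFAF4 (-0.56) and NDUFAF2 (-0.46) for complex I and COX17 (-0.53), the copper chaperone of complex IV, with edgeR adjusted p 0.0336, 0.0382 and 0.0301. C20orf7, the older symbol of NDUFAF5, had -0.68 (edgeR adjusted p = 0.00812). With the siRNAs 0 of the 36 passed in edgeR, where 4.99% of all genes were lower and 2.97% higher. Their median was -0.09, and 7 had an unadjusted edgeR p under 0.05 (19.4%, against 26.5% of all genes).

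Of 20 genes that express or maintain mitochondrial DNA, 4 fell with the inhibitor (20%, against 14.8% of all genes) and 0 rose, against 13.2% (median -0.26). With the siRNAs 2 of the 20 fell (10%, against 4.99% of all genes) and 0 rose, against 2.97%. TFB1M, which methylates the small mitochondrial ribosomal RNA, had -1.76 (SE 0.11, edgeR adjusted p = 4.94e-06) with the inhibitor and -0.53 (edgeR adjusted p = 0.00917) with the siRNAs, and its difference of 1.23 passed (edgeR adjusted p = 0.00117). POLRMT, the mitochondrial RNA polymerase, fell with the siRNAs (-0.72, edgeR adjusted p = 0.0136). TFAM, which packages mitochondrial DNA, had -0.36 and -0.49, neither passing (edgeR adjusted p 0.149 and 0.0568).

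Among 15 regulators of mitochondrial genes, 3 fell with the inhibitor (20%, against 14.8% of all genes) and 1 with the siRNAs (6.67%, against 4.99%). In both comparisons 0 rose, against 13.2% and 2.97% of all genes. PPARGC1B, a coactivator, fell with both the siRNAs (-0.92, edgeR adjusted p = 0.0184) and the inhibitor (-1.27, edgeR adjusted p = 0.00305). NRF1 (-0.51) and GABPB1 (-0.45), the partner of the ETS factor GABPA, fell with the inhibitor (edgeR adjusted p 0.0176 and 0.013). A link between these levels and the promoter motifs was not tested. PPARGC1A, ESRRA, GABPA and MYC passed in neither main comparison. Of 17 genes for prohibitins, cristae organisation and import, 8 fell with the inhibitor (47.1%, against 14.8% of all genes) and 0 rose (median -0.33), led by STOML2 (-0.53, edgeR adjusted p = 0.00312) and PHB2 (-0.48, edgeR adjusted p = 0.00431). TOMM20, the import receptor, was at 130 and 143 CPM with the nonspecific siRNA and 238 to 271 CPM with the NRAS siRNAs (0.88, edgeR adjusted p = 0.00108). Its DMSO libraries stood at 255 and 269 CPM and its inhibitor libraries at 235 and 238 CPM, so the nonspecific siRNA libraries alone were low.

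The tricarboxylic acid cycle and pyruvate entry list had 5 of 27 lower (18.5%, against 14.8% of all genes) and 2 higher (7.41%, against 13.2%) with the inhibitor, shares near the background for the lower genes. PDP1, the phosphatase that activates pyruvate dehydrogenase, had -2.43 (edgeR adjusted p = 6.7e-06) and also fell with the siRNAs (-1.12, edgeR adjusted p = 0.00158). IDH3A (-0.87) and FH (-0.54) fell while IDH2 (0.69) and PDK2, a kinase that inhibits pyruvate dehydrogenase, (0.43) rose, with edgeR adjusted p 0.00062, 0.00441, 0.00825 and 0.028. Of 14 tested carriers and channels, 3 fell with the inhibitor (21.4%, against 14.8% of all genes) and 2 rose (14.3%, against 13.2%). The median of the list was 0.0039. The ATP and ADP exchanger SLC25A5 (-0.62) and the outer membrane channels VDAC1 (-0.52) and VDAC3 (-0.30) fell. SLC25A4 (0.33), the muscle form of the exchanger, and SLC25A1 (0.62), the citrate carrier, rose. Their edgeR adjusted p were 0.00177, 0.00627, 0.0329, 0.0385 and 0.00734.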

How the data were processed

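RNA-seq libraries were made with a stranded mRNA kit, per the labels' protocols. The deposited values are whole-number read counts per gene, not normalised; per the submitters' processing notes the authors used bcl2fastq, TopHat2, SAMtools and HTSeq with hg19 and GRCh37. Tool versions, the annotation and the strand setting were not given in the sources used here. Overlapping genes, antisense partners and near-identical copies therefore cannot be told apart. Lines naming no gene were left out: 27.0 to 28.9% of reads were not uniquely aligned, 9.91 to 11.3% had no gene and 0.591 to 0.649% were ambiguous.

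Tests used edgeR 4.0.16 in R 4.3.3 (glmQLFit, glmQLFTest, TMM, filterByExpr by group, minimum count 10), with all 10 libraries in 1 fit, 5 residual degrees of freedom and Benjamini-Hochberg adjustment over 14761 genes at 0.05. No p was adjusted over the members alone. Groups came from the titles. Replicates differed by 13.2 to 25.5 times the chi-square expected from counting, so each counted as 1 library. The labels do not call them separate cultures, and the spread behind every p-value may be technical. Alternatives were DESeq2 1.42.0, other scaling and filters, the compared groups alone, a replicate block, each library left out, and a GC offset in 20 bins per library, the last added after seeing the data.

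Transcript length and GC content are medians over GENCODE transcripts paired with RefSeq (GRCh38), not the counting annotation; promoters are from RefSeq (GRCh38.p14). The members and lists were chosen with earlier results of these data known. Named genes were members past the threshold, the extremes of each complex, fixed isoforms and called genes of the lists. The steps were tested on simulated data. The values of 1 member are not reported here.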

Additional observations from a re-analysis of the deposited data

Results flagged for a closer look

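The response to the NRAS siRNAs and the response to the ERK inhibitor differed for 6 members, by the test of the difference itself in edgeR. The log2 difference, siRNA minus inhibitor, was -1.18 for NDUFB7, -1.44 for NDUFS7, -1.08 for ATP5D, -0.66 for NDUFA11, -0.62 for UQCR11 and 0.44 for UQCRH. NDUFB7, ATP5D, NDUFS7 and NDUFA11 are among the 7 subunits with transcripts of at least 60% GC, and UQCR11 and UQCRH are not. With the GC offset the differences were -0.60, -0.73, -0.40, -0.27, -0.57 and 0.38 in the same order, each closer to 0. The part of library GC content in them was not tested beyond that offset.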

How the results depend on the processing

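No direction of a called member reversed under any alternative run. Counts of called members that moved by more than 1.5 times were as follows. With siRNA 1, where the count was 0, DESeq2 gave 1 (1.23%, against 5.02% of all genes). No expression filter gave 2 (2.3%, against 3.88%) and the GC offset 2 (2.47%, against 3.64%). With siRNA 2 (3), upper-quartile scaling gave 1 (1.23%, against 6.21%) and DESeq2 6 (7.41%, against 10.5%). The fit on the compared groups alone gave 0, against 1.57% of all genes. With the mean of both siRNAs (4), RLE scaling gave 2 (2.47%, against 7.28%) and upper-quartile scaling 2 (2.47%, against 7.23%). The compared groups alone gave 1 (1.23%, against 2.93%). With the ERK inhibitor (19), upper-quartile scaling gave 11 (13.6%, against 26.7%) and the compared groups alone 10 (12.3%, against 27.6%). When 1 library was left out, the share of all tested genes called also changed in every comparison. With siRNA 2, the mean of both siRNAs and the difference, it was lowest among the fits with the fewest called members. With siRNA 1 and the inhibitor it was highest among the fits with the most called members. The ranges that follow count called members alone. Leaving out 1 library at a time gave 0 to 1 with siRNA 1, 0 to 3 with siRNA 2, 0 to 4 with their mean, 3 to 21 with the inhibitor and 1 to 5 for the difference of responses; where a group kept 1 library, it was assumed to vary like the others.

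The labels do not say that replicate numbers pair the libraries, and the main fit had no replicate block. The deviations of replicate 1 from its group mean were correlated over genes between groups. Their r was over 0.1 in 9 of 10 group pairs and ran from -0.009 to 0.605. A replicate block gave 3 calls with siRNA 1 (3.7%, against 8.67% of all genes) and 10 with siRNA 2 (12.3%, against 19.1%). It gave 10 with their mean (12.3%, against 19.3%), 27 with the inhibitor (33.3%, against 38.3%) and 11 for the difference (13.6%, against 16.1%). The block with the GC offset gave 7 (8.64%, against 15% of all genes), 19 (23.5%, against 25.8%) and 22 (27.2%, against 26.2%). For the inhibitor and the difference it gave 31 (38.3%, against 45.2%) and 12 (14.8%, against 17.9%). Causes of these shifts were not tested. Of the complex medians and named members, 1013 values stayed, 46 moved and 203 lost their call. With 2 libraries a group, the smallest called change of a member was -0.27 on the log2 scale (NDUFB8). No fit on the compared groups alone was run for the difference of responses.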
